A study of Mus musculus with 360 samples.

Results

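Cytosolic HSP90 and 6 of its cochaperones were followed in single heated leukemia cells. The 8 genes were taken by their symbols from the expression table, as 8 of its 24781 genes: Hsp90aa1 and Hsp90ab1, which encode the inducible and the constitutive cytosolic HSP90, and Ahsa1, Ahsa2, Stip1, Chordc1, Cacybp and Fkbp4, whose proteins work with HSP90. The cells were C1498, a mouse line labelled as acute myeloid leukemia, exposed for 10 min to 45 °C or, as the control, to 37 °C. Imaged cells were then picked 1 by 1 with an automated instrument and sequenced. Times count from the end of heating. The 45 °C arm had 6 cells picked before heating (-1 h), 13 cells at 1 h, 61.9% of all 360 cells at 5 h, 52 cells at 10 h and 21 cells at 15 h. The 37 °C arm had 11 cells before heating (-1 h), then 11 (1 h), 6 (5 h), 6 (10 h) and 11 cells (15 h). All cells came from 1 cell line, and no label names a culture or a heating run, so each of the 10 groups counted as 1 sample and no p-value was computed. The 51 cells called unheated are the 37 °C cells and the 6 cells of the 45 °C arm picked before heating.

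HSP90 is an ATP-driven dimer that takes over client proteins, among them kinases and steroid receptors, late in their folding. Cochaperones steer its cycle: STIP1 hands clients over from HSP70, AHSA1 speeds up ATP hydrolysis, and FKBP4 joins mature receptor complexes. Under heat, unfolded protein engages the chaperones that restrain the transcription factor HSF1, which then binds heat shock elements in the promoters of chaperone genes.

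Transcripts were counted as UMIs, molecules told apart by a molecular barcode. The level of a gene in a group is its summed UMIs over that group's total, scaled to 1e+06 (CPM), a share and not an amount per cell. A log2 ratio sets a 45 °C group over the 37 °C group of the same time, so 1 means 2-fold higher, and its 95% interval covers only the error of counting, while spread between cells or cultures lies outside it. Measured genes are those with 20 or more UMIs summed over the pair of groups and a level of 10 CPM or more in either, which all 8 genes reached in each comparison. The median cell had from 18741 UMIs (45 °C 10 h) to 40544 UMIs (37 °C -1 h). Cells with over 50% of their UMIs in the ribosomal RNA precursor Rn45s numbered 2 at 5 h, 7 at 10 h and 2 at 15 h after heating and 0 among unheated cells. The unheated cells carried RNA of the leukocyte phosphatase gene Ptprc (502 CPM) and of the T cell receptor genes Cd3e (199.3 CPM) and Cd3g (230 CPM). The other 7 of 9 T cell markers had under 6 CPM, with 0 UMIs for Thy1, Cd4 and Cd8a, and the leukocyte marker Cd52 also had 0. None of 9 myeloid marker genes had a UMI in them, which goes against the myeloid label, so the cells are called C1498 here.

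Letters of the kind found in heat shock elements were looked for near the start of these genes. RefSeq promoters of build GRCm38.p6, from 250 bases before to 50 after the start, were matched for 6 of the 8 genes; Hsp90aa1 and Hsp90ab1 were not among them. The promoters were searched for alternating GAA and TTC units with the first bases of neighbouring units 5 bases apart, a pattern that reads alike on both strands. Capitals mark the units:
Chordc1, chr9:18292260-18292289, plus strand: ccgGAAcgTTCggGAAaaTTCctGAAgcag
Fkbp4, chr6:128438774-128438833, minus strand: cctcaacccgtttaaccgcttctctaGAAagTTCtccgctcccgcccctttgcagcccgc
Chordc1 held 5 units in a row, from position -4 to 19 relative to its RefSeq start. It was the only 1 of 32851 promoters searched (0.00304%) with a chain that long. The GENCODE annotation places the start of Chordc1 earlier, at 18292125, and by it the whole chain lies inside the gene. Fkbp4 held 2 units, from -151 to -144, and chains of 2 or more units were in 15.1% of promoters. The promoters of Ahsa1, Ahsa2, Stip1 and Cacybp held no chain of 2. A match of letters is a description of these windows and not a bound site. Only exact units inside the windows were counted, so looser or more distant matches were not looked for.

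Both HSP90 genes stood higher in heated cells from 5 h on, and Hsp90aa1 was the only one of the 8 genes past 2-fold on the CPM scale. Other scalings put Hsp90ab1 past 2-fold at 5 h too (1.02 to 1.11), and without 1 heated cell Hsp90aa1 was short of it at 15 h (0.98). At 1 h, 0 of the 8 genes were at least 2-fold higher, beside 1.44% of all measured genes. At 5, 10 and 15 h, 1 of 8 was, beside 6.23%, 11.9% and 4% of all measured genes, and each time it was Hsp90aa1. The count at 10 h is close to that background share. None of the 8 was at least 2-fold lower at any of the 4 times, where 6.3%, 15.2%, 7.22% and 2.17% of all measured genes were.

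Counts of higher genes were largest at 1 h and 5 h, and the one at 1 h depended on the control. At 1 h, 8 of 8 genes were higher by any size, beside 37% of measured genes, but against all unheated cells summed 4 of 8 were. At 5 h it was 7 of 8, beside 36.8%. At 10 h, 5 of 8 were higher, beside 50.5%, and at 15 h 3 of 8, beside 48.2%, which no longer exceeds the background. The median log2 ratio over the 8 genes was 0.25, 0.46, 0.26 and -0.084 at 1, 5, 10 and 15 h, while the median over all measured genes was -0.14, -0.23, 0.0029 and -0.023. The 6 cochaperones alone had medians of 0.24, 0.42, 0.036 and -0.17, and the HSP90 pair 0.28, 1.28, 1.12 and 0.81.

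**Figure D1:**
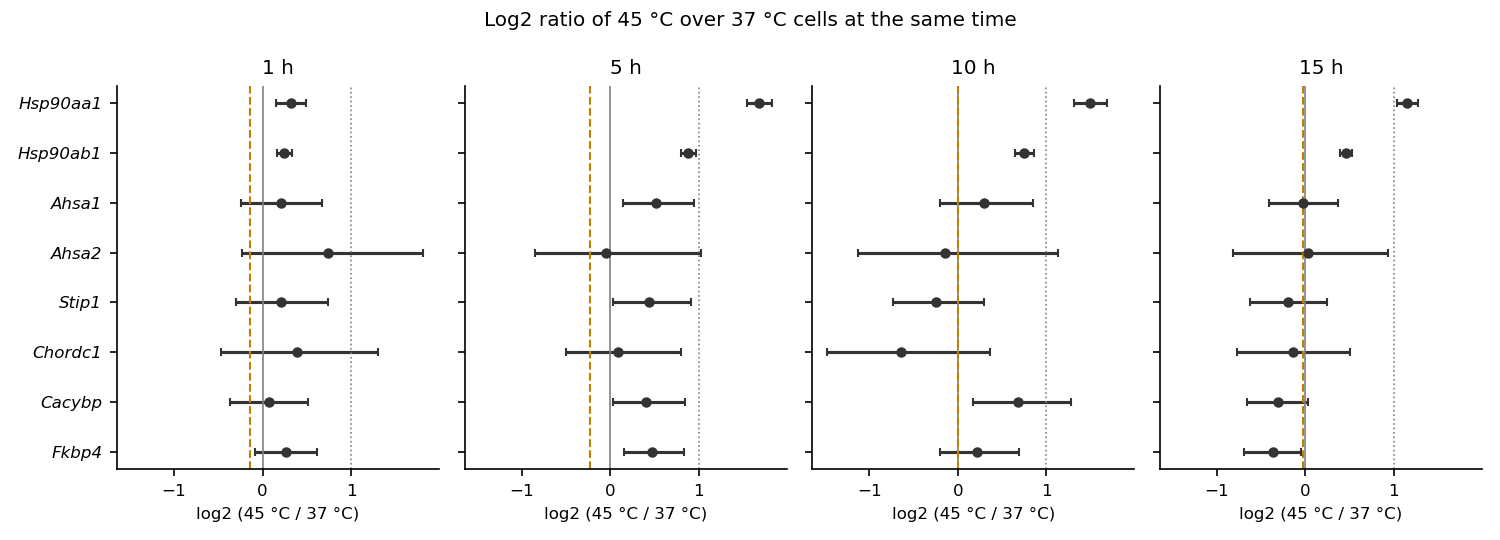
Log2 ratio of 45 °C over 37 °C cells (x axis) for the 8 genes (y axis) at 1, 5, 10 and 15 h, with 95% counting intervals; the dotted line marks 2-fold and the dashed line the median of all measured genes. Hsp90aa1 lies past the dotted line at 5, 10 and 15 h, and the cochaperones lie to its left.

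Hsp90aa1 lies on chromosome 12 (110690605 to 110702728, minus strand, GRCm38). Its level was 1581 CPM in 45 °C cells against 1264 CPM in 37 °C cells at 1 h, a log2 ratio of 0.32 (0.16 to 0.49). At 5 h, single 45 °C cells spanned 638 to 13499 CPM with a median of 5284 CPM, and 37 °C cells 1048 to 2184 CPM with a median of 1490 CPM. The summed level was then 5202 CPM in 45 °C cells against 1621 CPM in 37 °C cells, a log2 ratio of 1.68 (1.54 to 1.83). The ranges overlapped, although the 10th percentile of the heated cells, 2418 CPM, lay above the highest 37 °C cell of that time.

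Later heated groups stood lower than at 5 h and still above their controls. At 10 h, 45 °C cells spanned 0 to 9828 CPM with a median of 3505 CPM, and 37 °C cells 1207 to 2079 CPM with a median of 1438 CPM, giving a log2 ratio of 1.49 (1.32 to 1.68). At 15 h, 45 °C cells spanned 739 to 25363 CPM with a median of 3391 CPM, and 37 °C cells 1298 to 2481 CPM with a median of 1550 CPM, giving 1.15 (1.04 to 1.27). The value at 15 h passed 2-fold only with heated cell 15 included, and without that cell it stood at 0.98. Without heated cells 4, 12 and 15, the 3 highest, left out after their values were seen, it stood at 0.85. With the cells dominated by Rn45s left out, also a choice made after the data were seen, the ratio was 1.68 at 5 h, 1.52 at 10 h and 1.17 at 15 h.

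At 5, 10 and 15 h the interval of Hsp90aa1 lay wholly above the intervals of all 6 cochaperones. In the order of its 10 group levels, the 45 °C groups of 5, 10 and 15 h came first, each with an interval apart from its neighbour's. The other 7 groups, from 1694 CPM (37 °C 15 h) to 1264 CPM (37 °C 1 h), had intervals that overlapped those of their neighbours. The 45 °C 1 h group stood sixth among the 10, inside the unheated range. The interquartile ranges of the cells overlapped between neighbours in 8 of 9 pairs, the exception being 45 °C 15 h and 37 °C 15 h.

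Hsp90ab1 lies on chromosome 17 (45567775 to 45573271, minus strand) and encodes the form made without stress. It stood at 5406 CPM in 45 °C cells against 4557 CPM in 37 °C cells at 1 h (log2 0.25, 0.16 to 0.34). At 5 h, 45 °C cells spanned 1022 to 18280 CPM with a median of 9937 CPM, and 37 °C cells 4085 to 6104 CPM with a median of 5328 CPM. The log2 ratio was 0.88 (0.80 to 0.96) at 5 h, 0.75 (0.65 to 0.86) at 10 h and 0.46 (0.39 to 0.53) at 15 h. It was thus lower than that of Hsp90aa1 at each of these 3 times, with intervals that did not overlap, and its own highest levels were in the same 3 heated groups. At 5 h rescaling carried it past 2-fold, to 1.09 by TMM, 1.02 by median-of-ratios and 1.11 after centring on the median of all genes.

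**Figure D2:**
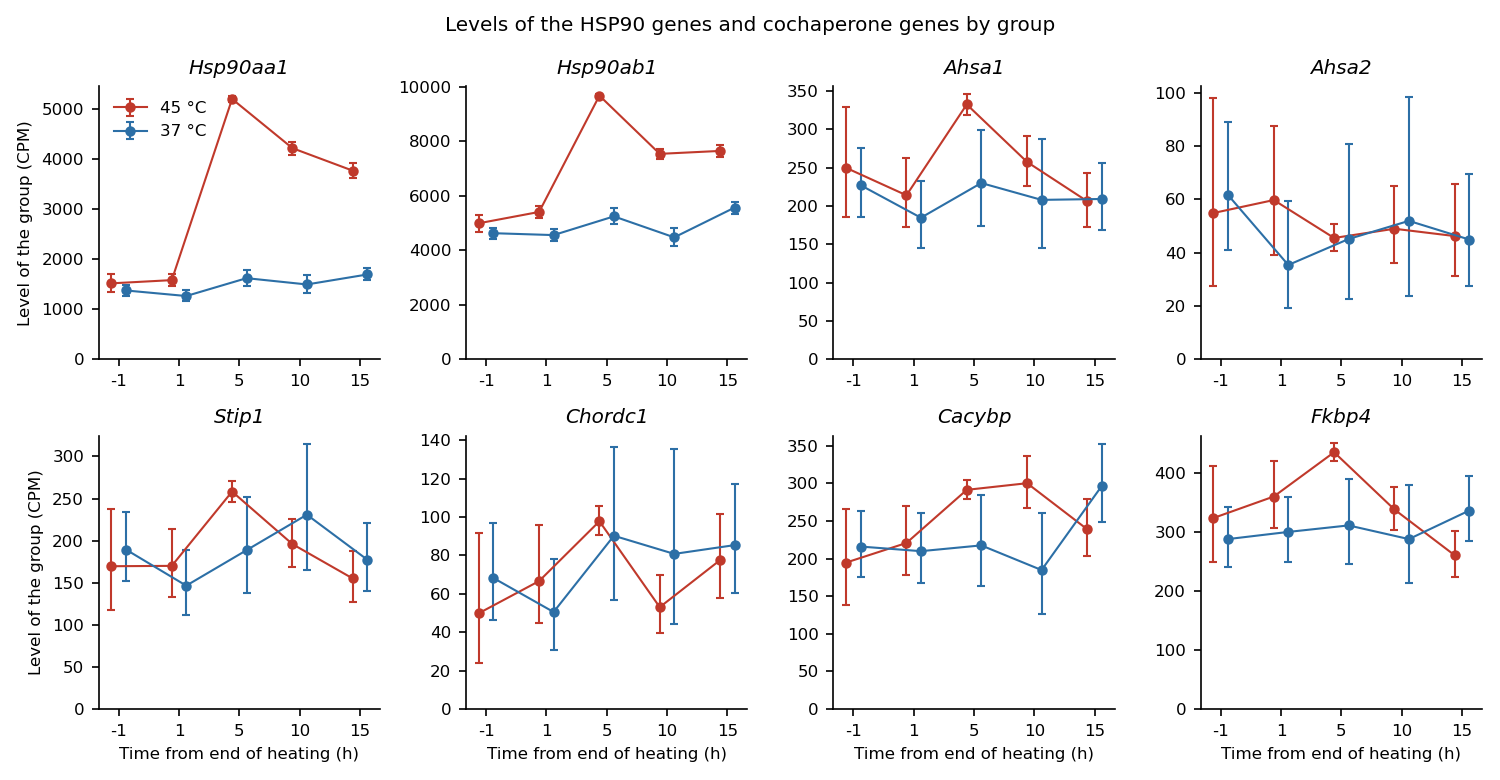
Levels of the 8 genes (y axes, CPM of the group's summed UMIs, each gene on its own scale) by time in hours (x axes) in 45 °C and 37 °C cells, with 95% counting intervals. Hsp90aa1 and Hsp90ab1 stand apart from 5 h on, while most cochaperone intervals overlap.

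Within single cells the HSP90 genes separated heated from unheated cells more widely than the cochaperones, which had fewer UMIs per cell. The highest of the 51 unheated cells had 2481 CPM of Hsp90aa1, and 0 of 13 heated cells exceeded it at 1 h. At 5 h 89.2% of heated cells did (84.4% to 92.98%, exact Clopper-Pearson interval over these cells, which leaves out differences between cultures), at 10 h 37 of 52 cells (71.2%), and at 15 h 14 of 21 (66.7%). With each cell thinned to 5000 UMIs, which left out 1 cell at 5 h and 5 at 10 h, these shares were 0%, 81.1%, 65.96% and 38.1%. For Hsp90ab1, 7.69%, 86.1%, 40.4% and 42.9% of heated cells exceeded the highest unheated cell, and 0%, 79.3%, 38.3% and 47.6% after thinning. At least 50% of heated cells exceeded the highest unheated cell for 0, 2, 1 and 1 of the 8 genes at 1, 5, 10 and 15 h, beside 0.0569%, 0.211%, 0.0466% and 0.0158% of measured genes. At 15 h Hsp90aa1 was the only gene of 6346 measured ones that did so, and after thinning its share was below 50%.

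The cochaperones mostly stayed within the unheated range in single cells. They averaged 0.234 to 2.11 UMIs per thinned heated cell at 5 h, against 26.5 for Hsp90aa1 and 48.9 for Hsp90ab1. With so few UMIs, counting error widens the unheated range. The effect of low counts on these shares cannot be told apart from that of a smaller change. Without thinning, the largest share above the highest unheated cell was that of Fkbp4 at 5 h, 47 cells (21.1%), and at 5 h the other 5 ran from 1.35% (Ahsa2) to 13.5% (Ahsa1). The order differed after thinning, when Stip1 had the largest share, 12.6% at 5 h (7.17% without thinning), and Fkbp4 had 4.05%. Of the heated cells at 5 h, 91.9% exceeded that limit for at least 1 of the 8 genes, 85.7% for 2 or more, 9.42% for 4 or more and 0 cells for all 8.

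**Figure D3:**
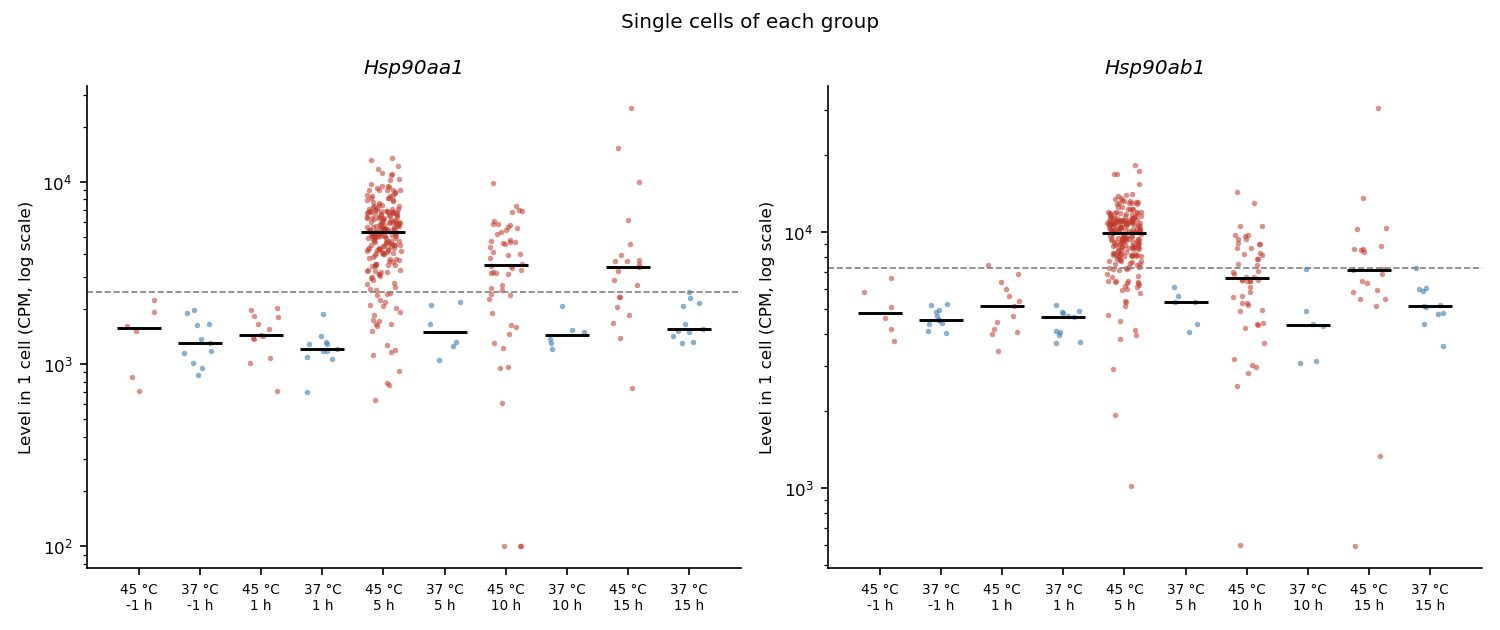
Levels of Hsp90aa1 and Hsp90ab1 in each cell (y axes, CPM, log scale; cells under 100 CPM drawn at 100) by group (x axes), with black bars at the medians and a dashed line at the highest unheated cell. At 5 h, 89.2% of heated cells lie above the line for Hsp90aa1 and 86.1% for Hsp90ab1.

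By summed UMIs, heated groups from 5 h on held more Hsp90aa1 per molecule of Hsp90ab1 than their controls. Together both genes made up 1.49% of UMIs in 45 °C cells against 0.686% in 37 °C cells at 5 h. The shares were 1.18% in 45 °C cells against 0.597% in 37 °C cells at 10 h, and 1.14% in 45 °C cells against 0.726% in 37 °C cells at 15 h. Per UMI of Hsp90ab1 there were 0.538 UMIs of Hsp90aa1 in 45 °C cells against 0.309 in 37 °C cells at 5 h. At 10 h there were 0.560 in 45 °C cells against 0.334 in 37 °C cells, and at 15 h 0.493 in 45 °C cells against 0.304 in 37 °C cells. The log2 change of this ratio was 0.077 (-0.11 to 0.27) at 1 h, 0.80 (0.63 to 0.97) at 5 h, 0.74 (0.53 to 0.96) at 10 h and 0.70 (0.56 to 0.83) at 15 h. While each gene's own ratio was lower at 15 h than at 5 h, the interval of the balance at 15 h overlapped that at 5 h. Between unheated groups the same change ran from -0.10 to 0.17. In single cells the median ratio was 0.536 in 45 °C cells against 0.290 in 37 °C cells at 5 h. It was 0.509 in 45 °C cells against 0.327 in 37 °C cells at 10 h, and 0.431 against 0.353 at 15 h. The interquartile ranges at 15 h overlapped, 0.384 to 0.826 in 45 °C cells and 0.268 to 0.408 in 37 °C cells. The ratio depends on how each gene is counted, so it is read only across groups.

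Cells with more Hsp90aa1 also tended to have more Hsp90ab1. In cells thinned to 5000 UMIs, Spearman's rho was 0.47 over the heated cells at 5 h (all but 1) and 0.63 over 47 cells at 10 h, as a description of cells that share their source and a fixed total. That total includes Rn45s, which held over 50% of UMIs in 7 of the 52 heated cells at 10 h before thinning. At 10 h the thinned values had a rho with the cell's UMIs of 0.31 (Hsp90aa1) and 0.28 (Hsp90ab1), and at 5 h of -0.091 and -0.047. The part of depth and of Rn45s in these correlations was not tested. Over all 28 pairs among the 8 genes the median rho was 0.080 at 5 h and 0.095 at 10 h. The cochaperones averaged between 0.234 and 2.11 UMIs per thinned cell at 5 h, so their weak correlations carry little information. The variance over the mean at 5 h was 5.62 for Hsp90aa1 and 3.76 for Hsp90ab1, where counting alone gives a value of 1. That of the cochaperones was lower and ran from 0.924 (Ahsa2) to 1.37 (Fkbp4).

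**Figure D4:**
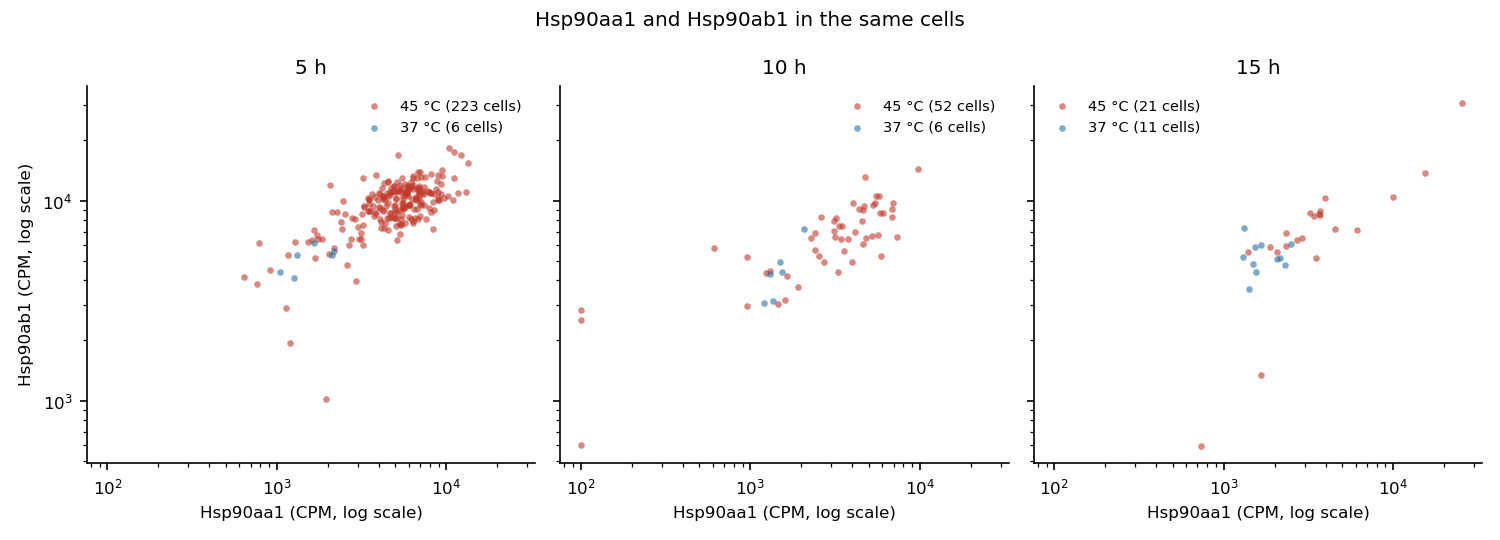
Hsp90aa1 (x axes) and Hsp90ab1 (y axes) in the same cells at 5, 10 and 15 h (CPM, log scales; cells under 100 CPM of Hsp90aa1 drawn at 100), for 45 °C and 37 °C cells. Heated cells extend up and to the right of the 37 °C cells, and some lie among them or below.

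Among the cochaperones that act on the ATPase cycle, Ahsa1 (chromosome 12, 87266479 to 87273998, plus strand) encodes the main activator of HSP90's ATP hydrolysis. At 5 h its 45 °C cells spanned 0 to 907 CPM with a median of 316 CPM, and its 37 °C cells 32.3 to 338 CPM with a median of 247 CPM, which overlap. The summed level was 332 CPM in 45 °C cells against 230 CPM in 37 °C cells at 5 h (log2 0.52, 0.15 to 0.94). Its interval held 0 at 1, 10 and 15 h, with ratios of 0.21, 0.29 and -0.024.

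Ahsa2 (chromosome 11, 23487882 to 23498030, minus strand), a relative of Ahsa1, had few UMIs and no clear difference. It stood at 59.8 CPM in 45 °C cells against 35.4 CPM in 37 °C cells at 1 h (0.73, -0.23 to 1.81). The intervals also held 0 at 5, 10 and 15 h, with ratios of -0.049, -0.15 and 0.029. Single control cells weighed on these values: without 37 °C cell 9 the 1 h ratio was 1.01, and without 37 °C cell 4 the 5 h ratio was 0.64. Rescaling turned the 5 h sign, to 0.16 by TMM, 0.091 by median-of-ratios and 0.18 after centring. Ahsa2 overlaps Usp34 on the other strand by 2679 bases, and whether counting used the strand is not given in the sources used here, so the reads of both genes cannot be told apart there.

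Stip1 (chromosome 19, 7020702 to 7039967, minus strand) encodes the HSP70 to HSP90 adaptor, also called HOP. At 5 h it stood at 258 CPM in 45 °C cells against 188.7 CPM in 37 °C cells (0.44, 0.031 to 0.91), with cells spanning 0 to 801 CPM after heating and 61.6 to 431 CPM at 37 °C. At 10 h it was at 195.96 CPM in 45 °C cells against 231 CPM in 37 °C cells (-0.25, -0.73 to 0.29), and at 15 h at 155.1 CPM in 45 °C cells against 177.5 CPM in 37 °C cells (-0.20, -0.63 to 0.25). The sign of its ratio thus differed between 5 h and the later times, although the later intervals held 0. Unheated groups ranged from 146.6 to 231 CPM, the highest being the 10 h control. Against all unheated cells summed, the ratio of Stip1 was 0.52 at 5 h, 0.13 at 10 h and -0.20 at 15 h.

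Chordc1 (chromosome 9, 18292125 to 18317442, plus strand) encodes a CHORD domain protein that binds HSP90, and its RefSeq promoter window holds the chain of 5 units shown above. Its level was 97.8 CPM in 45 °C cells against 90.3 CPM in 37 °C cells at 5 h (0.085, -0.49 to 0.80). That control, from 22 UMIs, was the highest of the unheated groups, which ran from 49.9 to 90.3 CPM. Against all unheated cells summed, the 5 h ratio was 0.47. Within the heated cells Chordc1 was at 66.7, 97.8, 53.1 and 77.6 CPM at 1, 5, 10 and 15 h. The 5 h level over that at 1 h gave a log2 ratio of 0.53 (0.017 to 1.14). The 10 h level over that at 5 h gave a log2 ratio of -0.87 (-1.32 to -0.47), the lowest of the 8 genes. At 10 h it stood at 53.1 CPM in 45 °C cells against 80.8 CPM in 37 °C cells, from only 14 UMIs in the control (-0.64, -1.48 to 0.36).

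Cacybp (chromosome 1, 160202367 to 160212875, minus strand) encodes a calcyclin-binding adaptor with a CS domain, the fold that binds HSP90 in several cochaperones. It was the only 1 of the 8 genes with its highest ratio at 10 h, 300 CPM in 45 °C cells against 184.7 CPM in 37 °C cells (0.68, 0.17 to 1.27). At 5 h the ratio was 0.41 (0.028 to 0.84). At 15 h it stood at 239 CPM in 45 °C cells against 297 CPM in 37 °C cells (-0.31, -0.66 to 0.030). Unheated groups themselves ranged from 184.7 to 297 CPM, the lowest being the 10 h control and the highest the 15 h control. Within the heated cells, the 10 h level of Cacybp over that at 5 h gave a log2 ratio of 0.045 (-0.14 to 0.22). Against all unheated cells summed, the ratio of Cacybp was 0.35 at 5 h, 0.39 at 10 h and 0.065 at 15 h.

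Fkbp4 (chromosome 6, 128429735 to 128438677, minus strand) encodes FKBP52, an immunophilin of steroid receptor complexes. At 5 h its 45 °C cells spanned 0 to 946 CPM with a median of 423 CPM, and its 37 °C cells 193.8 to 502 CPM with a median of 296 CPM. The ratio was 0.26 (-0.090 to 0.62) at 1 h, 0.47 (0.16 to 0.83) at 5 h and 0.22 (-0.20 to 0.69) at 10 h. At 15 h it was 261 CPM in 45 °C cells against 337 CPM in 37 °C cells (-0.37, -0.69 to -0.044), the only member interval wholly under 0 in the 4 comparisons with 37 °C cells of the same time.

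The 37 °C groups differed among themselves, so heated groups were also set against all 6 unheated groups. Heated levels above all 6 were found for 1 of 8 genes at 1 h (Fkbp4), beside 9.27% of measured genes, and for 6 of 8 at 5 h, beside 7.32%. At 10 h this held for 5 of 8, beside 21.5%, and at 15 h for 2 of 8, the HSP90 genes, beside 15.8%. Among the unheated groups, the 37 °C group at 1 h was the lowest for Hsp90aa1, Ahsa1, Ahsa2 and Stip1. Against all unheated cells summed, the 1 h median of the 8 genes was 0.046, with Hsp90aa1 at 0.093. Stip1 (-0.069), Chordc1 (-0.064), Cacybp (-0.045) and Ahsa1 (-0.0020) then lay under 0.

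Within the heated arm, 7 of 8 genes were higher at 5 h than at 1 h, beside 41.2% of measured genes (median 0.56, all genes -0.11), and Hsp90aa1 was the 1 that reached 2-fold, beside 6.21% (log2 1.72, 1.61 to 1.83). At 10 h, 2 of 8 were higher than at 5 h, beside 67.2% (median -0.36, all genes 0.24). At 15 h, 2 of 8 were higher than at 10 h, beside 49.1% (median -0.24, all genes -0.011). Hsp90ab1 at 15 h differed from 10 h by 0.021 (-0.031 to 0.072), while Hsp90aa1 stood lower by then (-0.16, -0.23 to -0.091).

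Before heating, the 45 °C arm and the 37 °C arm differed little in these genes. The log2 ratio at -1 h ran from -0.41 (Chordc1) to 0.17 (Fkbp4), with 0 inside all 8 intervals. Their median was -0.010, while that of all genes was 0.014. Of the 8, 4 were higher by any size, beside 51% of measured genes, and 0 were at least 2-fold higher, beside 2.58% of measured genes. Later 37 °C groups were set over the one at -1 h, which these 4 comparisons share. At 1, 5, 10 and 15 h, 1, 7, 4 and 5 of the 8 genes were higher, beside 52.5%, 46.6%, 51.1% and 50.1% of measured genes. Their medians were -0.21, 0.070, -0.020 and 0.24, while all genes had 0.025, -0.049, 0.011 and 6.98e-05. At 15 h, the 37 °C cells stood above the 37 °C cells at -1 h for Hsp90aa1 (0.30, 0.15 to 0.46), Hsp90ab1 (0.27, 0.18 to 0.35) and Cacybp (0.46, 0.070 to 0.85). Differences of this size occurred without heating.

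Of the 5 genes outside the list most like Hsp90aa1 across the 10 groups, 3 encode chaperones. Likeness was Pearson's r of log2 (CPM + 1) over the 10 groups, a description over groups that share their heating, among 2391 genes with at least 100 CPM in their highest group. Hsp90ab1 ranked first (r = 0.98). These 5 were Hspe1 (0.96) and Hspd1 (0.90), which encode the mitochondrial HSP10 and HSP60, Snhg1 (0.94), a small nucleolar RNA host gene, Hsph1 (0.93), an HSP110 that aids HSP70, and Cir1 (0.89), a transcriptional corepressor. Cacybp ranked 68 (0.71), Ahsa1 100 (0.66), Stip1 351 (0.40) and Fkbp4 359 (0.40), while Ahsa2 and Chordc1 had under 100 CPM.

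By the count of higher genes, the wider HSP90 system departed most from the background at 15 h, when 5 of 33 were higher in heated cells. Of 36 further genes (the mitochondrial and endoplasmic reticulum HSP90s, other cochaperones and the heat shock factors), 27, 34, 33 and 33 were measured at 1, 5, 10 and 15 h. Of these, 17, 11, 13 and 5 were higher in heated cells, beside 37%, 36.8%, 50.5% and 48.2% of all measured genes, so the share at 5 h was near the background. At least 2-fold higher were 0, 0, 1 and 0, beside 1.44%, 6.23%, 11.9% and 4% of all measured genes, and at least 2-fold lower 1, 3, 3 and 2, beside 6.3%, 15.2%, 7.22% and 2.17%. Their medians of 0.13, -0.32, -0.18 and -0.27 lay above the median of all genes at 1 h and below it at the 3 later times.

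Named members of that wider list showed mixed values. Hsp90b1, the HSP90 of the endoplasmic reticulum, stood at 651 CPM in 45 °C cells against 498 CPM in 37 °C cells at 1 h (0.38, 0.12 to 0.66). At the later times it stood lower in heated cells, at -0.31 (-0.56 to -0.027), -1.17 (-1.50 to -0.82) and -0.42 (-0.73 to -0.11). Tsc1 (0.57, -0.69 to 1.97) and Dnajc7 (0.53, -0.31 to 1.42) had the highest ratios at 1 h, with intervals that held 0. Cdc37l1 had the lowest (-2.01, -4.18 to -0.50), from 4 UMIs in 45 °C cells and 16 in 37 °C cells. Fkbp5 and Nudcd3 followed it and were equal (-0.87 each). Ptges3, which encodes the late-acting cochaperone p23, was at 469 CPM in 45 °C cells against 423 CPM in 37 °C cells at 5 h (0.14), and had ratios of 0.49 (0.090 to 0.94) at 10 h and -0.013 at 15 h. Nudc, a CS domain protein, had ratios of 0.29, 0.14, -0.36 and -0.27 over the 4 times, each with an interval that held 0. At 5 h Sgta (0.93, 0.073 to 2.15) and Fnip1 (0.68, -0.43 to 2.45) stood highest, with 9 and 5 UMIs in the control. The 74.3 CPM of Sgta in 45 °C cells lay within the unheated groups, from 36.9 CPM (37 °C 5 h) to 87.6 CPM (37 °C 15 h). Ttc5 (-1.38, -2.84 to 1.16) and Unc45a (-1.20, -2.20 to 0.25) stood lowest, with 3 and 7 UMIs in the control.

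At the later times 2 cochaperone genes and both heat shock factor genes marked the low end. At 10 h Ppp5c, a phosphatase bound to HSP90, was at 73.5 CPM in 45 °C cells against 184.7 CPM in 37 °C cells (-1.34, -1.95 to -0.68), and Aarsd1 was at 26.5 CPM in 45 °C cells against 103.9 CPM in 37 °C cells (-1.98, -2.89 to -1.02). Unc45a (1.16, -0.52 to 4.56) and Hsf2 (0.88, -0.58 to 3.43) stood highest at that time, with 2 and 3 UMIs in the control. At 15 h Hsf1, the main heat shock transcription factor gene, was at 25.4 CPM in 45 °C cells against 62.9 CPM in 37 °C cells (-1.29, -2.27 to -0.39). Hsf2 was at 14.9 CPM in 45 °C cells against 35.95 CPM in 37 °C cells at 15 h (-1.24, -2.57 to -0.040). These values rest on 17 and 28 UMIs for Hsf1 and on 10 and 16 UMIs for Hsf2, in 45 °C and 37 °C cells. Tsc1 (0.38, -0.60 to 1.49) and Dnajc7 (0.37, -0.26 to 1.06) were again the highest, with intervals that held 0.

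Near-identical sequence elsewhere in the genome limits how well some members are counted. Of the 50-base stretches within the last 500 bases of Hsp90aa1 transcripts, 24.7% also occur in the annotated genes Gm12346 or Gm5844, and the corresponding shares were 19.7% for Ahsa1, 14.3% for Cacybp and 2.25% for Hsp90ab1. The values of these genes are uncertain to the extent that counting split such reads. Values that were not whole numbers held 30.3% of the UMIs of Hsp90aa1 and 53.1% of those of Hsp90ab1, though their fractional parts came to under 0.1% of either gene's UMIs. With all such values set to 0, Hsp90aa1 was no longer past 2-fold at 10 h and 15 h. Hsp90ab1 then stood at -0.22 (1 h), 11.2 (5 h), -0.025 (10 h) and -0.16 (15 h). Its value at 5 h rests on the part of a UMI added to each sum, so it gives no usable size of change.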

How the data were processed

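Single C1498 cells were sequenced, 1 GEO sample per cell, and grouped by the temperature and time in the sample titles. The authors deposited estimated counts of UMIs per gene and cell. Per the submitters' processing notes, STAR and the build mm10 were used. Not given in the sources used here are the counting program, annotation, strand setting and cell filters. Group sums were rounded to whole numbers. Levels have exact Poisson intervals, and log2 ratios, taken after adding 0.5 UMI to each sum, exact conditional binomial (Clopper-Pearson) intervals, all at 95% and for counting error only. Median UMIs per cell ran from 18741 to 40544 over the groups. The ratio and its interval were tried on simulated Poisson counts. These hold no spread between cells or cultures, so that trial covers counting error only. Coordinates are from GENCODE vM21 (GRCm38), and promoters from RefSeq.

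The 8 genes and the list of 36 were chosen with earlier results of these data known, so no list was tested. All 8 were named; of the 36, at each time the 2 highest, the 2 lowest and the 2 with most UMIs; and the 5 genes most like Hsp90aa1, predicted genes left out. Alternatives covered scaling, controls, filters, cells left out and values not whole. Python 3.11.15, numpy 2.4.6, pandas 2.3.3, scipy 1.17.1, matplotlib 3.10.9, R 4.3.3 and edgeR 4.0.16 (TMM factors only) were used. Spike-in RNAs were not analysed here, so RNA per cell is not reported.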

Additional observations from a re-analysis of the deposited data

Results flagged for a closer look

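In the groups of 4 to 10 cells, 2 of 24 sets of cells (8 genes in 3 groups) had an end cell unusually far from the others by Dixon's criterion, which chance alone meets in about 1 in 20 sets. In 37 °C cells at 10 h, cell 3 had 2079 CPM of Hsp90aa1 (49 UMIs), and the next cell had 1531 CPM. Without it the log2 ratio of Hsp90aa1 at 10 h was 1.59. In 37 °C cells at 5 h, cell 3 had 431 CPM of Stip1 (12 UMIs), and the next cell had 198.6 CPM. Without it the log2 ratio of Stip1 at 5 h was 0.69.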

How the results depend on the processing

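Over the alternatives, the median log2 ratio of the 8 genes ran from 0.046 to 0.43 at 1 h, from 0.37 to 0.79 at 5 h and from 0.12 to 0.36 at 10 h. At 15 h it ran from -0.37 to 0.068, so its sign was not settled. Of the alternative ratios of single genes, 472 stayed within the counting interval of the reported ratio, 45 moved outside it and 3 turned the sign of a ratio whose interval was clear of 0. Counting also ratios near 0, 42 of 520 had the other sign than reported. TMM factors shifted all ratios by 0.17, 0.21, 0.063 and -0.0018 over the 4 times. The count of genes at least 2-fold higher at 5 h was 2 under TMM factors, median-of-ratios size factors and centring on all genes. It was also 2 with values not whole set to 0, but Hsp90ab1 then stood at 11.2, which rests on the 0.5 UMI added. That last setting drops whole values for any fraction, 53.1% of Hsp90ab1 UMIs. It gave counts of 0 at 10 h and 0 at 15 h, reversed Hsp90ab1 (log2 -0.22, -0.025 and -0.16 at 1, 10 and 15 h), and gave a change of the HSP90 balance of -9.93 at 5 h, which rests on the 0.5 UMI added. Leaving out single cells gave counts of 0 to 1 at 1 h (Ahsa2, without 37 °C cell 9) and 0 to 1 at 15 h (Hsp90aa1, without 45 °C cell 15). The count at 15 h was 0 without 45 °C cells 4, 12 and 15, an alternative chosen after seeing the data. No paired analysis was possible because the cell numbers of a group mark single cells and not shared cultures. Each group was 1 sample and the 5 h and 10 h controls held 6 cells each, so differences between cultures could not be measured. Depth limited Ahsa2 and Chordc1 most, with 9 and 14 UMIs in the 10 h control.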

Other observations

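The widest range of Hsp90aa1 was in heated cells at 15 h. Cell 4 had 25363 CPM of Hsp90aa1 and 30697 CPM of Hsp90ab1 in 6499 UMIs, cell 15 had 15325 and 13690 CPM in 23229 UMIs, and cell 12 had 9997 and 10438 CPM in 6802 UMIs. Their Rn45s shares were 19.98%, 15.9% and 16.1%. In 2 other cells of that group, Rn45s held 83.4% and 88.3% of UMIs, and Hsp90aa1 was at 739 and 1668 CPM. At 10 h, 3 heated cells had 0 UMIs of Hsp90aa1, with 1060 to 2781 UMIs in all and 65.7% to 79.1% of them from Rn45s. The part of depth and of Rn45s in these values was not tested.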
